A study of Homo sapiens with 20 samples.

Results

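The genes described here are 10 members of JAK-STAT signalling: the kinase JAK2, the transcription factors STAT3, STAT5A and STAT6, the inhibitors SOCS1, SOCS2, SOCS3 and CISH, and the kinase genes PIM1 and PIM2, which STAT factors are known to induce. They were chosen by gene symbol, as probe sets annotated to exactly 1 of these symbols. Each had 1 such probe set, so they are 10 of the 18416 genes measured, and all 10 were among the 15850 genes that reached a log2 signal of 5 on at least 2 arrays and were tested.

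RNA was taken from 5 established lines of classical Hodgkin lymphoma, SUP-HD1, L428, UHO-1, KM-H2 and L1236, and measured on 20 Affymetrix Human Gene 1.0 ST arrays. All of them stably expressed FOXO1(3A)ER, the transcription factor FOXO1 in a form that AKT cannot inactivate, joined to the oestrogen receptor's hormone-binding part. Cells of each line received 4-hydroxytamoxifen (4-OHT), the ligand that activates the fusion protein, or ethanol vehicle for 24 h, with 2 arrays for each treatment in each line. The arrays used here hold no line that lacks the fusion protein, and what 4-OHT does by itself cannot be told apart from what FOXO1 does. The labels do not say whether a line is 1 clone or a mixture of transduced cells. They state that the experiment was done 2 times but do not tie the 2 arrays of a group to separate cultures. The p-values therefore measure only how far these arrays differ, which may be technical in part.

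Cytokines bind paired receptor chains and thereby activate the JAK kinases bound to those chains. The JAKs phosphorylate the receptor and then STAT proteins, which pair, enter the nucleus and switch on target genes. Among these targets are inhibitors of the SOCS family, which bind JAKs or receptors and shut the signal down, and PIM kinases, which favour survival and growth and are controlled largely by their abundance. In classical Hodgkin lymphoma the pathway is known to be active in many tumours, with gains of the region that holds JAK2 and mutations of SOCS1, STAT6 and PTPN1.

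Signals are log2 values, so a difference of 1 is a 2-fold change. The arrays of KM-H2 and L428 formed a set apart from those of the other 3 lines, with medians of 5.67 to 5.71 against 6.26 to 6.41. Separate normalisation was inferred from the values alone and cannot be told apart from another batch difference. Levels were compared between lines only within these 2 sets. The 6 Hodgkin cell markers with a probe set (TNFRSF8, FUT4, FSCN1, IRF4, TRAF1 and CCL17) were above 5 on all 20 arrays. L1236 had much less IRF4 and TRAF1 than the other lines of its set, with vehicle means of 6.31 and 5.36. SUP-HD1 had 12.12 and 9.60, while UHO-1 had 12.20 and 10.17. TNFRSF8 was higher in L1236 (7.76) than in SUP-HD1 (7.14). The summed linear signal of the 6 markers on vehicle arrays was 876 to 989 for L1236, 7785 to 7924 for SUP-HD1 and 10554 to 10791 for UHO-1. In L428 this sum was 5389 to 6052 with 4-OHT, against 8672 to 9207 with vehicle, and TNFRSF8 (-1.45) and FSCN1 (-1.08) fell. In KM-H2 it was 4032 to 4430 with 4-OHT and 4861 to 5051 with vehicle, and both genes fell too (-1.38 and -0.78). In UHO-1 it was 9189 to 9688 with 4-OHT, and TNFRSF8 fell (-0.85). The sums of the arms overlapped in L1236 and SUP-HD1. Of 5 B cell markers, CD79A, CD79B and PAX5 were above 5 on all 20 arrays, CR2 on 8 and MS4A1 on 0. The B cell markers summed to 5028 to 5191 on the 4-OHT arrays of L1236, against 1147 to 1325 on its vehicle arrays, where CD79A (2.36) and CR2 (2.26) rose. In KM-H2 they summed to 450 to 472 with 4-OHT, against 1700 to 1799 with vehicle, where CR2 fell (-2.59). The T cell genes CD3D, CD3E, CD3G and TRAT1 were high in L1236, with a CD3E mean of 12.15 after 4-OHT and 12.22 in vehicle. The summed linear signal of 6 stromal markers was 4605 to 5461 on the 4-OHT arrays of KM-H2, against 333 to 345 on its vehicle arrays. Most of that was LUM, which averaged 12.18 with 4-OHT and 3.41 with vehicle, and DCN (6.76 and 3.37), while COL1A1 fell by 0.62 and COL1A2, COL3A1 and PDGFRB did not pass the test. The 6 myeloid markers summed to 454 to 479 on the 4-OHT arrays of L1236 and 217 to 238 on its vehicle arrays, with LYZ at 7.93 and 4.27. The part of these genes in the responses of KM-H2, L428, L1236 and UHO-1 was not tested. In these bulk RNA measurements, fewer cells of a kind and less RNA per cell cannot be told apart.

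PIM1 and PIM2 rose and SOCS1 fell on average over the 5 lines, and these were the largest average changes among the 10 genes. JAK2 rose by a smaller amount. The test was limma's moderated test, two-sided, on all genes together, and a gene was called at an adjusted p below 0.05 after Benjamini-Hochberg adjustment over the 15850 genes. On average, 4 members were called higher (PIM1, PIM2, JAK2 and STAT3) and 4 lower (SOCS1, CISH, SOCS3 and STAT5A), which is 80% of them against 38.6% of all genes tested (17.4% higher and 21.2% lower). The median absolute change was 0.17 log2 units over the members and 0.084 over all genes. The members were chosen with earlier results of these data known, so these shares describe them and are not a test of the set. With the 5 lines as the replicates, 0 members were called, and only 1 gene of all those tested was. In that fit PIM2 (unadjusted p = 0.000507), PIM1 (0.00178) and SOCS1 (0.0160) were the members at an unadjusted p below 0.05, as were 2496 of all genes.

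The members answered most often in L428 and KM-H2. In L428, 5 were called higher and 3 lower, with 29.5% of all genes called in either direction, 12.0% higher and 17.5% lower. In KM-H2, 2 were higher and 4 lower, against 22.3% of all genes called, 10.0% higher and 12.3% lower. In UHO-1, 4 were higher and 1 lower, against 24.5% called, 13.4% higher and 11.1% lower. In L1236, 1 was higher and 2 lower, against 23.1% called, 8.25% higher and 14.9% lower. In SUP-HD1, 2 were higher and 0 lower, against 6.03% called, 3.68% higher and 2.35% lower. CISH was the 1 lower member at an unadjusted p below 0.05 in SUP-HD1. Of the 50 responses of a member in a line, 24 were called, 14 of them higher and 10 lower. By limma, 0 members were called in all 5 lines, against 0.820% of all genes. PIM2 was the 1 member at an unadjusted p below 0.05 in all 5. For these counts at an unadjusted p in single lines the share of all genes was not counted, so they only name genes. SOCS2, STAT3 and STAT6 were called higher in one line and lower in another, as were 8.12% of all genes. Among all genes called, the share of higher ones was 35.7% for L1236, 54.6% for UHO-1 and 61.0% for SUP-HD1, and after centring each array on its median it was 23.6%, 72.8% and 73.0%. An F test of whether the response differed between the lines was passed by all 10 members, against 42.7% of all genes. Of the 100 differences of response between 2 lines, 42 were called, against 17.3%. Where 2 lines came from different sets of arrays, a difference of line cannot be told apart from one of set. The F test over all 5 lines shares this limit.

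**Figure D1:**
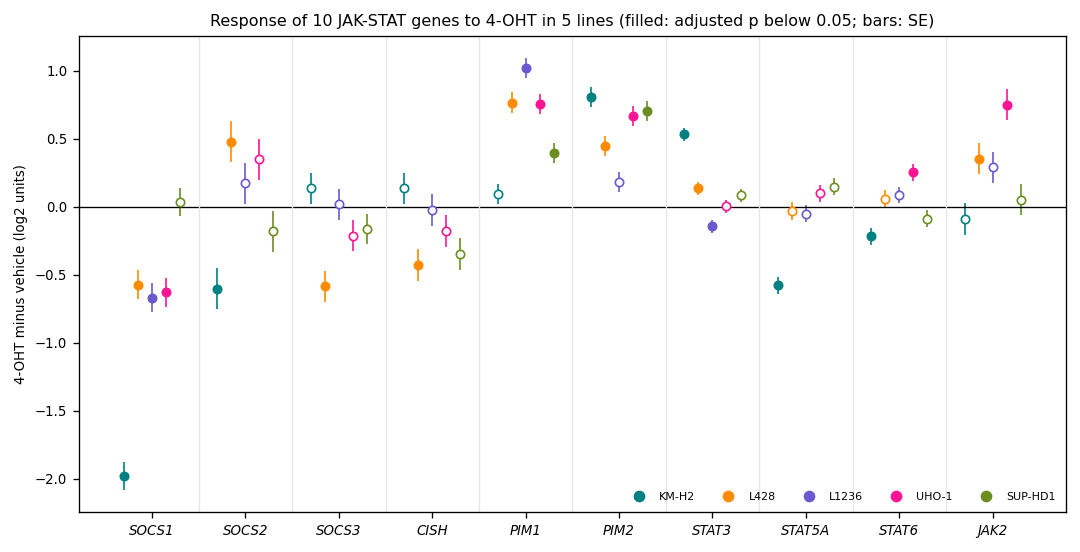
Change of each member with 4-OHT in each of the 5 lines, in log2 units of 4-OHT minus vehicle on the vertical axis, with error bars of 1 SE from limma and filled symbols for calls. SOCS1 lies far below 0 in KM-H2 (-1.98) and at 0 in SUP-HD1 (0.03), PIM1 and PIM2 lie above 0 in every line, and STAT5A is called only in KM-H2.

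JAK2, the kinase that serves receptors such as those of interleukin 3, GM-CSF and interferon gamma (chromosome 9, probe set 8154178), rose in UHO-1 and L428. In UHO-1 its signals were 8.80 and 8.65 with 4-OHT, against 8.03 and 7.92 with vehicle. Both 4-OHT arrays lay above both vehicle arrays, and the rise of 0.75 ± 0.11 log2 units (SE, 2 arrays per arm) was 1.68-fold (adjusted p = 5.13e-05). In L428 the signals were 7.56 and 7.44 with 4-OHT and 7.18 and 7.12 with vehicle, a rise of 0.35 ± 0.11 (adjusted p = 0.0219). That call was lost after median centring (adjusted p = 0.0711) and in 3 of the 4 fits that left out 1 array of L428, with adjusted p of up to 0.160.

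In L1236 the JAK2 signals were 7.45 and 7.14 with 4-OHT and 6.81 and 7.20 with vehicle, so the arms overlapped and the difference of 0.29 ± 0.11 was not called (adjusted p = 0.0761). It passed without L1236 vehicle 2 (0.49, adjusted p = 0.00623) and without L1236 4-OHT 2 (0.44, 0.0237). The arms overlapped in KM-H2 (6.08 and 6.03 with 4-OHT, 6.06 and 6.23 with vehicle) and in SUP-HD1 (9.75 and 9.71 with 4-OHT, 9.71 and 9.63 with vehicle). UHO-1 responded more than SUP-HD1 by 0.70 ± 0.16 (adjusted p = 0.00369), and the response of KM-H2 lay below that of UHO-1 by 0.84 (adjusted p = 0.000673). On average JAK2 rose by 0.27 ± 0.051 (adjusted p = 0.000165), a call that was lost without UHO-1 (0.15, adjusted p = 0.0554).

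The promoter window of JAK2 is shown because, of the 15 windows that RefSeq (GRCh38.p14) gave for 9 of the members, it was the one that held a forkhead letter pattern. Windows ran from 250 bases before a gene start to 50 after it. The patterns searched on both strands were GTAAACA and its variant GTAAATA, neither of which overlaps the other. GTAAACA occurred in 0 of the 15 member windows and in 3.42% of all 35116 windows of the table, and GTAAATA in 1 member window and in 2.67% of all. The match lay 66 bases before the first of 4 annotated starts of JAK2, at chr9:4984140-4984439 on the plus strand, and is in capitals. A match of letters is a description and not a binding site.
JAK2: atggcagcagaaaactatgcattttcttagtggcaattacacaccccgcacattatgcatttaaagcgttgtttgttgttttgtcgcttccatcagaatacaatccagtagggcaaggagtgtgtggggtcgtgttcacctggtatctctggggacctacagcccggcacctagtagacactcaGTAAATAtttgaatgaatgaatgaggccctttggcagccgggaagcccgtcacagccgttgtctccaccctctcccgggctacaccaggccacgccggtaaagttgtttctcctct

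STAT3, the factor activated by cytokines such as interleukin 6 and interleukin 10 (chromosome 17, probe set 8015607), rose in KM-H2. Its signals there were 9.86 and 9.87 with 4-OHT, against 9.33 and 9.34 with vehicle. The arms were well apart, with a change of 0.53 ± 0.047 log2 units, 1.45-fold (adjusted p = 7.17e-09). Smaller differences were called in opposite directions in L428 (11.40 and 11.34 with 4-OHT, 11.22 and 11.25 with vehicle) and L1236 (11.55 and 11.53 with 4-OHT, 11.64 and 11.73 with vehicle). The rise in L428 was 0.14 ± 0.047 (adjusted p = 0.0329) and the fall in L1236 was -0.15 ± 0.047 (0.0288). Each of these was lost in 6 of 31 alternative fits, among them in L428 median centring (0.285), no intensity trend (0.138) and 3 of the 4 fits without 1 of its arrays (0.0782 to 0.218), and in L1236 cyclic loess (0.198), no trend (0.135), its 4 arrays alone (0.0684) and 3 of the 4 fits without 1 of its arrays (0.0711 to 0.286).

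The arms of STAT3 overlapped in UHO-1 (11.44 and 11.51 with 4-OHT, 11.44 and 11.50 with vehicle). In SUP-HD1 the signals were 11.93 and 11.94 with 4-OHT and 11.88 and 11.82 with vehicle, and the difference was not called (0.086, adjusted p = 0.402). The response of KM-H2 exceeded that of L1236 by 0.68 ± 0.067 (adjusted p = 1.19e-07). On average STAT3 rose by 0.12 ± 0.021 (adjusted p = 5.84e-05), but without KM-H2 the average was 0.020 (adjusted p = 0.558). It was -0.018 in L1236, UHO-1 and SUP-HD1 alone.

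STAT5A, the factor that answers to interleukin 2, interleukin 7 and prolactin (chromosome 17, probe set 8007212), fell in KM-H2. Its signals were 8.69 and 8.64 with 4-OHT, against 9.26 and 9.22 with vehicle, a difference of -0.58 ± 0.063 log2 units, 1.49-fold lower (adjusted p = 1.82e-07). In no other line was it called, although the arms did not overlap in UHO-1 (11.27 and 11.24 with 4-OHT, 11.14 and 11.17 with vehicle) or SUP-HD1 (9.29 and 9.23 with 4-OHT, 9.14 and 9.09 with vehicle), where the 4-OHT arrays were the higher ones. In L428 the signals were 10.62 and 10.78 with 4-OHT and 10.70 and 10.76 with vehicle, and in L1236 they were 10.72 and 10.54 with 4-OHT and 10.68 and 10.69 with vehicle. The response of KM-H2 differed from that of each other line, by -0.72 ± 0.088 from that of SUP-HD1 (adjusted p = 2.76e-06).

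The average fall of STAT5A (-0.083 ± 0.028, adjusted p = 0.0220) rested on KM-H2: without that line the average was 0.041 (adjusted p = 0.358). The call was also lost without an intensity trend (0.0634) and without L428 4-OHT 1 (0.0639), L1236 4-OHT 2 (0.0653) or SUP-HD1 4-OHT 2 (0.0505).

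STAT6, the factor of interleukin 4 and interleukin 13 signalling (chromosome 12, probe set 7964360), moved in opposite directions in KM-H2 and UHO-1. In KM-H2 the signals were 9.32 and 9.36 with 4-OHT and 9.57 and 9.54 with vehicle, a fall of -0.22 ± 0.061 (adjusted p = 0.0106). In UHO-1 they were 10.84 and 10.76 with 4-OHT and 10.60 and 10.50 with vehicle, a rise of 0.25 ± 0.061 (adjusted p = 0.00487). The arms were apart in both, and the response of KM-H2 lay below that of UHO-1 by 0.47 (adjusted p = 0.000398). The fall was lost without KM-H2 vehicle 1 (0.0770) or 4-OHT 1 (0.0828), and the rise without UHO-1 vehicle 2 (0.0768) or 4-OHT 1 (0.0643). Differences in the other 3 lines, from -0.09 to 0.09, and the average of 0.02 (adjusted p = 0.637) were not called.

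SOCS1, which blocks the JAK kinases directly and marks them for degradation (chromosome 16, probe set 7999423), fell in 4 of the 5 lines. In KM-H2 its signals were 6.81 and 7.00 with 4-OHT, against 8.94 and 8.84 with vehicle. The arms were almost 2 units apart, a change of -1.98 ± 0.10 log2 units, 3.95-fold lower (adjusted p = 9.47e-13), which ranked 12 of 15850 genes by size of fall in that line. In L428 the signals were 8.50 and 8.57 with 4-OHT and 9.07 and 9.14 with vehicle (-0.57, adjusted p = 0.000162). In L1236 they were 6.93 and 6.88 with 4-OHT and 7.58 and 7.56 with vehicle (-0.67, 4.05e-05). In UHO-1 they were 6.21 and 6.12 with 4-OHT and 6.97 and 6.62 with vehicle (-0.63, 0.000143). The arms were apart in each of these lines, and the calls in all 4 held in all 31 alternative fits of each.

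In SUP-HD1 the arms of SOCS1 overlapped, at 10.42 and 10.67 with 4-OHT and 10.42 and 10.60 with vehicle. The difference was 0.03 ± 0.10 (95% interval -0.18 to 0.25), and it was below 0 when vehicle array 1 or 4-OHT array 2 of this line was left out. The response of SUP-HD1 differed from that of each other line, from -2.01 ± 0.15 for KM-H2 minus SUP-HD1 (adjusted p = 1.16e-09) to an adjusted p of 0.00559 for L428. KM-H2 differed from each other line too, with adjusted p of at most 8.75e-07. On average SOCS1 fell by 0.76 on the log2 scale (SE 0.047, adjusted p = 1.02e-11), 1.70-fold, and ranked 4 of 15850 genes by size of fall.

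SOCS2, known for restraining growth hormone signalling (chromosome 12, probe set 7957551), fell in KM-H2 and rose in L428. In KM-H2 the signals were 8.42 and 8.26 with 4-OHT, against 8.80 and 9.08 with vehicle, a difference of -0.60 ± 0.15 (adjusted p = 0.00429). In L428 they were 6.90 and 6.36 with 4-OHT and 6.15 and 6.16 with vehicle, a difference of 0.48 ± 0.15 (adjusted p = 0.0178). The arms did not overlap in either line, but the 2 L428 4-OHT arrays were 0.54 apart. The response of KM-H2 lay below that of L428 by 1.08 (adjusted p = 0.000806).

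Both SOCS2 calls depended on single arrays. That in KM-H2 was lost without vehicle 2 (-0.47, adjusted p = 0.0892) or 4-OHT 2 (-0.53, 0.0576). That in L428 was lost without 4-OHT 1 (0.21, adjusted p = 0.417), vehicle 1 (0.0770) or vehicle 2 (0.0686). In UHO-1 the signals were 8.09 and 8.59 with 4-OHT and 7.90 and 8.08 with vehicle, a difference of 0.35 that was not called (adjusted p = 0.0907) and that passed without UHO-1 4-OHT 1 (0.60, adjusted p = 0.0193). L1236 (0.17) and SUP-HD1 (-0.18) were not called. The average of 0.04 (adjusted p = 0.668) was not called either, and it was 0.20 (adjusted p = 0.0469) without KM-H2.

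SOCS3, which binds the interleukin 6 receptor chain IL6ST and the JAKs on it (chromosome 17, probe set 8018864), fell in L428. Its signals were 6.40 and 6.36 with 4-OHT, against 7.04 and 6.89 with vehicle. The arms were apart, with a difference of -0.58 ± 0.11 log2 units, 1.50-fold lower (adjusted p = 0.000291). In the other lines the differences ran from -0.21 in UHO-1 to 0.13 in KM-H2 and were not called. In UHO-1 the arms overlapped (8.52 and 8.71 with 4-OHT, 8.96 and 8.70 with vehicle), and the difference passed only after quantile normalisation (-0.30, adjusted p = 0.0477). KM-H2 and L428 differed in response by 0.72 ± 0.16 (adjusted p = 0.00255). The average (-0.16 ± 0.051, adjusted p = 0.0135) was -0.056 and not called without L428 (adjusted p = 0.499).

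CISH, a SOCS family member that STAT5 is known to induce and that dampens interleukin 2 signalling (chromosome 3, probe set 8087739), fell in L428. Its signals were 6.47 and 6.86 with 4-OHT and 7.23 and 6.96 with vehicle, a difference of -0.43 ± 0.12 log2 units (adjusted p = 0.00646). The arms were apart by 0.10, and the call was lost without 4-OHT 1 (-0.24, adjusted p = 0.208) or vehicle 1 (-0.30, 0.134). In SUP-HD1 the signals were 7.78 and 7.79 with 4-OHT and 8.10 and 8.17 with vehicle. There the arms were further apart, but the difference of -0.35 ± 0.12 was not called (adjusted p = 0.0910), with 6.03% of all genes called in that line. UHO-1 (-0.18), L1236 (-0.02) and KM-H2 (0.13) were not called. The average (-0.17 ± 0.052, adjusted p = 0.0129) was lost without L428 (0.113) or without SUP-HD1 (0.125), and the F test of CISH (adjusted p = 0.0388) was lost in 14 of 30 alternative fits.

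The promoter window of CISH (chr3:50611725-50612024, minus strand, GRCh38.p14, RefSeq) is shown because it was the one member window that held the STAT letter pattern TTCNNNGAA, which reads the same on both strands. It held 4 copies, in capitals, at 241, 230, 129 and 112 bases before the gene start. The pattern occurred in 7.66% of all 35116 windows, and 7 windows (0.0199%) held 4 or more copies. The other 8 genes with a window had none in these windows, which says nothing of sites elsewhere.
CISH: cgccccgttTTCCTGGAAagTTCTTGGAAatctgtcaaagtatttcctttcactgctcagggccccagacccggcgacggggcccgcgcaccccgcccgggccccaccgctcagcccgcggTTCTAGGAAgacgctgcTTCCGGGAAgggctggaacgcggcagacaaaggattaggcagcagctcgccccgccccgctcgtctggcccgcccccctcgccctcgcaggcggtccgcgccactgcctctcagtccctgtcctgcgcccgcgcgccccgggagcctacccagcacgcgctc

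PIM1, a serine/threonine kinase that favours survival and cell cycle entry (chromosome 6, probe set 8119161), rose in 4 lines. In L1236 its signals were 9.13 and 9.18 with 4-OHT, against 8.02 and 8.25 with vehicle, a rise of 1.02 ± 0.074 log2 units, 2.03-fold (adjusted p = 5.04e-10). In L428 they were 9.68 and 9.61 with 4-OHT and 8.82 and 8.94 with vehicle (0.77, 2.89e-08). In UHO-1 they were 10.74 and 10.79 with 4-OHT and 10.07 and 9.95 with vehicle (0.75, 1.18e-07). The arms were apart in these 3 lines by more than the replicates differed. In SUP-HD1, whose vehicle level was already the highest of its set, the signals were 11.84 and 11.82 with 4-OHT and 11.44 and 11.43 with vehicle (0.40, 0.00120).

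KM-H2 was the exception for PIM1, with 8.35 and 8.20 on the 4-OHT arrays and 8.16 and 8.20 on the vehicle arrays. The difference of 0.09 ± 0.074 (95% interval -0.06 to 0.25) was not called (adjusted p = 0.464). The response of KM-H2 lay below that of L1236 by 0.93 (adjusted p = 8.32e-07), and it differed from those of L428 and UHO-1 as well. Its difference from SUP-HD1 (adjusted p = 0.0472) was lost in 21 alternative settings. On average PIM1 rose by 0.61 ± 0.033 (adjusted p = 1.33e-12).

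PIM2, a related kinase with roles in cell survival and protein synthesis (chromosome X, probe set 8172471), also rose in 4 lines, KM-H2 among them. In KM-H2 its signals were 10.51 and 10.39 with 4-OHT, against 9.65 and 9.63 with vehicle, a rise of 0.81 ± 0.073 log2 units, 1.75-fold (adjusted p = 1.11e-08). In SUP-HD1 they were 11.41 and 11.36 with 4-OHT and 10.72 and 10.64 with vehicle (0.71, 5.93e-07), which ranked 132 of 15850 genes by size of rise there. In UHO-1 they were 11.30 on both 4-OHT arrays and 10.61 and 10.65 with vehicle (0.67, 5.86e-07). The arms were far apart in all 3 lines. In L428 the signals were 8.38 and 8.34 with 4-OHT and 7.99 and 7.84 with vehicle (0.45, 4.61e-05).

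In L1236, where PIM1 rose most, PIM2 was at 7.96 and 7.76 with 4-OHT and 7.75 and 7.60 with vehicle. The lower 4-OHT array was barely above the higher vehicle array, and the difference of 0.18 ± 0.073 was not called (adjusted p = 0.0874). It passed after cyclic loess (0.24, adjusted p = 0.0180), without L1236 vehicle 1 (0.25, 0.0393) and without 4-OHT 2 (0.28, 0.0224). The response of L1236 lay below that of SUP-HD1 by 0.53 (adjusted p = 0.000823), and that of KM-H2 exceeded that of L1236 by 0.63 ± 0.10 (adjusted p = 0.000133). On average PIM2 rose by 0.56 ± 0.033 (adjusted p = 4.53e-12). All called rises of PIM1 and PIM2 in single lines held in the 31 alternative fits of each.

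**Figure D2:**
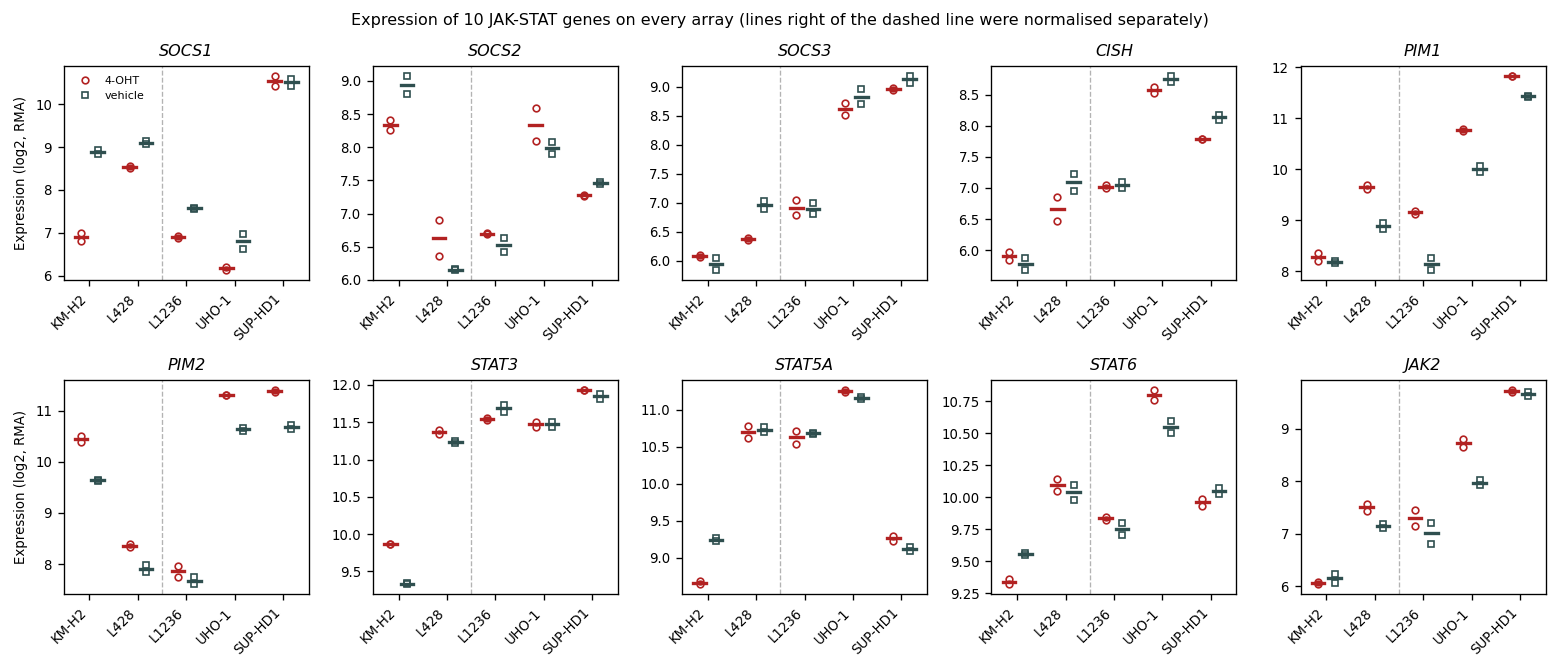
Log2 signal of each of the 10 members on each array (vertical axes), with 4-OHT arrays to the left of vehicle arrays in each line, 2 points per arm. Within a panel, levels can be compared between KM-H2 and L428 and between L1236, UHO-1 and SUP-HD1, the 2 sets of arrays told apart by their values. The SOCS1 points of KM-H2 are near 6.9 with 4-OHT and 8.9 with vehicle, while those of SUP-HD1 overlap above 10.

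Genes whose 5 line responses lay closest to those of a member were found by root mean square distance over the 5 lines, as a description without a test. Closest to PIM1 were OPTN, an autophagy receptor (distance 0.0961 log2 units), ANXA2P2, a pseudogene of annexin A2 (0.113), and STK38, a kinase (0.174). The differences of OPTN were 0.87 in L1236, 0.71 in UHO-1, 0.65 in L428, 0.36 in SUP-HD1 and 0.17 in KM-H2. Closest to PIM2 were PPM1L, a phosphatase (0.124), CDK17, a kinase (0.163), and ZNF217, a transcription factor (0.185). Those of PPM1L were 0.80 in UHO-1, 0.67 in KM-H2, 0.65 in SUP-HD1, 0.31 in L428 and 0.04 in L1236. Closest to SOCS1 were MX2, an interferon-induced gene (0.282), SPARC, a matrix protein gene (0.287), and the receptor gene GPR55 (0.345), with differences of -1.94, -2.04 and -1.75 in KM-H2.

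In vehicle, the members stood at different levels in the lines. Of the members, 9 were called between L428 and KM-H2 (54.3% of all genes), 9 between SUP-HD1 and UHO-1 (54.0%), 10 between SUP-HD1 and L1236 (57.4%) and 10 between UHO-1 and L1236 (56.6%), shares against which these counts must be read. L428 was higher than KM-H2 for 7 members: STAT3 by 1.90 ± 0.047 log2 units (3.74-fold), STAT5A by 1.49 ± 0.063, CISH by 1.32 ± 0.12, SOCS3 by 1.01 ± 0.11, JAK2 by 1.00 ± 0.11, PIM1 by 0.70 ± 0.074 and STAT6 by 0.48 ± 0.061. L428 was lower for SOCS2, by -2.79 ± 0.15 (6.91-fold), and PIM2, by -1.73 ± 0.073 (3.31-fold). SOCS1 did not pass between them (0.22, adjusted p = 0.0853), but did when the arrays of these 2 lines were fitted alone (adjusted p = 0.0297).

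SUP-HD1 was the highest of the other 3 lines for SOCS1, SOCS3, PIM1, STAT3 and JAK2. Its SOCS1 level was 13.1-fold that of UHO-1 and 7.67-fold that of L1236 (differences of 3.71 ± 0.10 and 2.94 ± 0.10 log2 units). Its PIM1 level was 2.68-fold that of UHO-1 and 9.84-fold that of L1236, and its JAK2 level was 3.25-fold and 6.35-fold theirs. UHO-1 was the highest for SOCS2, CISH, STAT5A and STAT6, and L1236 the lowest for SOCS2, SOCS3, CISH, PIM1, PIM2, STAT6 and JAK2. For STAT5A SUP-HD1 was the lowest, 4.11-fold below UHO-1 and 2.96-fold below L1236. Neighbours in these orders that could not be told apart were SUP-HD1 and UHO-1 for PIM2 (0.05 ± 0.073, adjusted p = 0.642). The differences between SUP-HD1 and UHO-1 for SOCS3 (0.29, adjusted p = 0.0308) and SOCS2 (-0.53, 0.00412), and between SUP-HD1 and L1236 for STAT3 (0.16, 0.00643), were each lost when 1 vehicle array was left out (adjusted p of up to 0.338, 0.0521 and 0.100).

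Around JAK2 in chromosome band 9p24, a region often gained in this tumour, 10 neighbouring genes were measured. In vehicle, 9 of them were higher in SUP-HD1 than in UHO-1 (54.0% of all genes called in either direction) and 9 were higher in SUP-HD1 than in L1236 (57.4%), the exception being INSL6, which averaged below 5 in these lines. CD274, which encodes PD-L1, was at 11.86 in SUP-HD1, 10.03 in UHO-1 and 5.85 in L1236, and PDCD1LG2, which encodes PD-L2, was at 11.15, 9.39 and 4.91. JAK2 itself was at 9.67, 7.97 and 7.01, so its order over these 3 lines was that of CD274 and PDCD1LG2. Of the neighbours, 7 were higher in UHO-1 than in L1236, 0 were lower and 3 were not called (56.6% of all genes called in either direction). Between L428 and KM-H2, where JAK2 was higher in L428, 1 neighbour was higher in L428, 6 were lower and 3 were not called (54.3% of all genes called). With 4-OHT, 5 of the 10 neighbours were called higher on average and 2 lower, with 38.6% of all genes called. ERMP1 fell by 0.35 on the log2 scale, and CD274 rose by 0.21 ± 0.053 (adjusted p = 0.00320), with a call in KM-H2 alone. There CD274 averaged 5.09 with 4-OHT and 4.71 with vehicle, close to the log2 signal of 5 required for testing. Its differences did not pass where its level was high, at 0.13 for SUP-HD1 (adjusted p = 0.685) and 0.21 for UHO-1 (0.202). In UHO-1, where JAK2 rose by 0.75, limma called 0 of the 10 neighbours, against 24.5% of all genes. There 2 of them (RCL1 and KDM4C) were at an unadjusted p below 0.05, for which the share of all genes was not counted.

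The other genes of the pathway were taken from lists of known roles. Of 5 kinases and STATs tested, 3 were called higher on average and 1 lower, with 17.4% of all genes called higher and 21.2% lower. JAK1, the partner of JAK2 or JAK3 on many receptors, rose by 0.48 ± 0.023 log2 units (adjusted p = 1.32e-13), most in L1236 (0.89) and L428 (0.88). STAT5B, the near relative of STAT5A, rose by 0.20 ± 0.033, with calls in L428 and L1236. TYK2 rose by 0.13 ± 0.028, with a call in L428 alone. STAT4 fell by 0.23 on the log2 scale, called in KM-H2 alone, where it averaged 4.56 with 4-OHT and 5.26 with vehicle, close to the floor. The median change of the list was 0.13, against -0.025 for all genes.

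Among 16 other genes listed as inhibitors, 6 were called higher and 2 lower on average (17.4% and 21.2% of all genes), with a median change of 0.04. Whether inhibition of the pathway changed was not tested. CBLB, a ubiquitin ligase, was called higher in all 5 lines, from 3.11 in KM-H2 and 2.61 in L428 to 2.12 in UHO-1, 1.75 in L1236 and 0.79 in SUP-HD1. PTPN1, a phosphatase that acts on JAKs and STAT6, rose by 0.52 ± 0.033 on average and most in UHO-1 (1.40 ± 0.075). It was not called in L1236 (-0.08). SOCS6 (0.18) and PIAS3 (0.12) rose on average, and USP18 (-0.19) and PTPN11 (-0.14) fell, all by little. SOCS6 was called in no single line, PIAS3 in UHO-1 alone, USP18 in L1236 alone and PTPN11 in L428 alone.

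Among 27 receptor chains, 10 were called higher on average and 5 lower (all genes, 17.4% and 21.2%), with a median of 0.08. IL6ST, the shared chain of interleukin 6 cytokines, rose by 0.74 ± 0.053 and was called in all lines but SUP-HD1. IL13RA1, which pairs with IL4R, rose in UHO-1 (1.10), L428 (0.95) and KM-H2 (0.59). IL5RA rose in UHO-1 (1.34), L428 (1.32) and SUP-HD1 (0.98), and it averaged below 5 in KM-H2 and L1236. IL7R rose by 1.25 on average, with calls in L1236 (4.83 ± 0.17), where it averaged 9.37 with 4-OHT and 4.54 with vehicle, and in L428 (0.87). IL2RB, a chain of the interleukin 2 and 15 receptors, fell in all lines but SUP-HD1, by 1.34 on the log2 scale in L428. CSF2RB fell in KM-H2 (-1.22), IFNGR2 in KM-H2 (-0.76) and L1236 (-0.55), and IL12RB1 in KM-H2 (-0.95) and UHO-1 (-0.53) while it rose in L428 (0.55).

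Of 13 cytokine genes tested, 3 were called higher on average and 2 lower, a share close to the 38.6% of all genes called. A further 9 with a probe set stayed below the floor. PRL rose by 5.09 ± 0.13 in UHO-1, where it averaged 10.05 with 4-OHT and 4.97 with vehicle. It was called higher in KM-H2 (1.12), L428 (0.76), SUP-HD1 (0.59) and L1236 (0.48) too, but averaged below 5 in both arms of these lines. IL12A rose in L428 (2.27), UHO-1 (1.01) and SUP-HD1 (0.73). IL15 rose by 1.23 in UHO-1 and 0.70 in L428, and fell in KM-H2 (-0.47). IL13, a cytokine made by Hodgkin cells, fell by 1.57 on the log2 scale in L428, where it averaged 5.16 with 4-OHT and 6.73 with vehicle. LIF was called lower in L1236 alone among single lines (-0.64).

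Other genes that STAT factors are known to induce were called in both directions, 9 of 26 higher and 11 lower on average, against 17.4% and 21.2% of all genes, with a median of -0.035. GBP2, an interferon-induced GTPase, rose in L428 (1.64), UHO-1 (1.34), KM-H2 (1.10) and SUP-HD1 (0.52), and fell in L1236 (-0.36), to 4.54 with 4-OHT, against 4.90 with vehicle. MCL1, a survival factor of the BCL2 family, rose by 0.46 ± 0.036 on average, with calls in KM-H2, L428 and UHO-1. FOS rose by 0.37 ± 0.051, with calls in L428 and SUP-HD1 alone. MYC, which drives growth and proliferation, fell in all 5 lines, most in KM-H2 (-2.44). Its fall was least in UHO-1 (-0.21), close to the threshold (limma, adjusted p = 0.0468). CCND2, cyclin D2, fell in all but SUP-HD1, most in KM-H2 (-0.89). BATF and ID1 fell on average (-0.33 and -0.40). The average of TIMP1 (0.34) rested on L1236, where it rose by 2.40, and was -0.17 without that line.

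**Figure D3:**
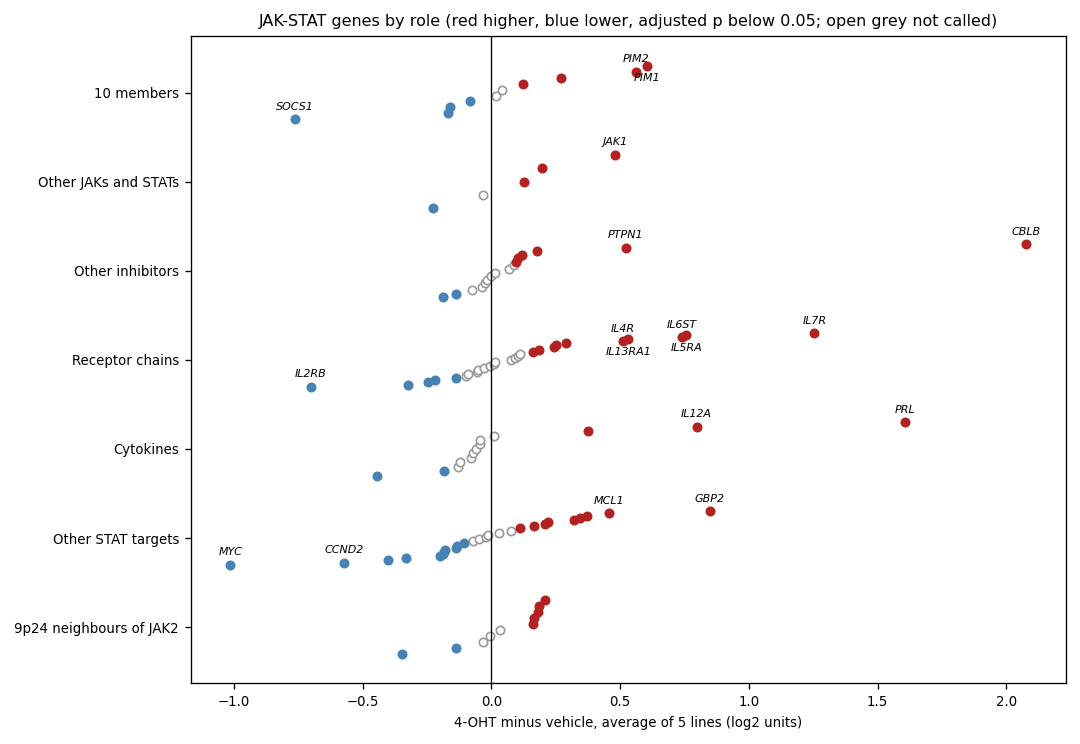
Average change over the 5 lines for the 10 members and for the genes of 6 lists, 1 row per role, in log2 units of 4-OHT minus vehicle on the horizontal axis. Red and blue points were called higher and lower, and open grey points were not called. SOCS1 (-0.76) lies left of every other gene listed as an inhibitor, while CBLB (2.08) and PTPN1 (0.52) lie to the right. The STAT-induced genes spread to both sides, with MYC at -1.01.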

How the data were processed

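The deposited signals are on a log2 scale and were made by the authors with RMA (robust multichip average: background correction, normalisation between arrays, probe summary), per the submitters' processing notes. The version of RMA and the genome build are not given in the sources used here. Per the labels' protocols, total RNA was amplified and labelled by a whole transcript sense assay. The dose of 200 µM 4-OHT is quoted only as labelled, since its text speaks of a different fusion protein in KM-H2 and L428. Arrays have no read depth: their number sets the precision, and over all genes the difference within a group of 2 arrays had an SD of 0.133 to 0.204.

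The platform annotation gave 1 symbol for 19457 of 33268 probe sets, more than 1 for 1751 and none for 12060, which it did not list. A gene with more than 1 probe set was read from that of highest mean. RefSeq (GRCh38.p14) held the Entrez identifiers of 19426 and changed 0 symbols. Sorted values differed by at most 0.253 between arrays of KM-H2 and L428, by at most 0.204 among the other 12, and by at least 0.712 between these sets. Group means of all 20 arrays were fitted with limma 3.58.1 in R 4.3.3 (eBayes with an intensity trend, 10 residual and 11.8 prior degrees of freedom). Benjamini-Hochberg adjustment ran over 15850 genes, jointly over pairs of lines where lines were compared. Errors are limma's standard errors, and adjusted p-values are from limma. In data simulated on the L428 comparison, 100 of 15850 genes were changed by 0.5 log2 units and 100 by 1. Of these changes 70% and 96% were recovered, and 8.29% of the calls made were false. Far fewer genes were changed than the 29.5% called in L428, so recovery in the real data may differ. The members and lists, and the rule that names up to 4 called genes per list and direction by size, were chosen with earlier results of these data known. Scaling, floor, trend, probe set, single arrays, single lines, lines as replicates and the replicate number as a block were varied.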

Additional observations from a re-analysis of the deposited data

Results flagged for a closer look

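The response to 4-OHT differed between the 5 lines for each of the 10 members by limma's F test, so each is listed here with its adjusted p. SOCS1 (5.84e-09) had its largest fall in KM-H2 and a difference near 0 in SUP-HD1. STAT3 (5.18e-07) and STAT5A (4.54e-06) moved most in KM-H2, STAT3 up and STAT5A down. PIM1 (1.82e-06) rose in every line but KM-H2, and PIM2 (0.000241) in every line but L1236. STAT6 (0.00131) fell in KM-H2 and rose in UHO-1, and SOCS2 (0.00142) fell in KM-H2 and rose in L428. JAK2 (0.00209) rose most in UHO-1, and SOCS3 (0.00808) fell in L428. CISH (0.0388) fell in L428, and its F test was the one that alternative fits ended. The same test called 42.7% of all genes.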

How the results depend on the processing

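The members kept their direction in most fits. Of 1550 values for single lines, 1496 kept their direction and side of the threshold, 27 lost a call, 10 gained one and 17 changed sign. Of 380 averages, 349 were kept, 20 lost a call, 1 gained one and 10 changed sign. Each member had 1 probe set, so the probe set rule could not move its values. For a line, 20 of the 31 fits left out 1 array, and most of those were arrays of other lines. Such fits could not move a line's difference, and neither could the floor, the trend, the block or the line's arrays alone. There only the p-value could change, so the count for single lines is mostly no test of direction. With the 5 lines as replicates, 0 members were called higher and 0 lower, and 1 gene of all was called higher and 0 lower. Members called lower on average numbered 2 without L428 and 2 in L1236, UHO-1 and SUP-HD1 alone, where 1982 of all genes were lower. In L428, 3 members and 1471 of all genes were higher after median centring. In L1236, 2 members and 1513 of all genes were higher after cyclic loess. There 1 member was lower after cyclic loess (2082 of all genes), without a trend and with its 4 arrays alone. After median centring, 855 of all genes were higher in L1236. In UHO-1, 2 members and 2091 of all genes were lower after quantile normalisation. The genes lower there numbered 914 after median centring and 940 with a floor of 8, which tests fewer genes. In SUP-HD1 they numbered 625 after quantile normalisation, 169 after median centring and 202 without a trend. Except for the floor, the cause was not tested.

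Leaving out 1 array at a time changed which members were called in L428, L1236 and SUP-HD1. Over all genes it gave 1356 to 2432 lower in L1236 (fewest without 4-OHT 2), 1157 to 2251 higher (fewest without vehicle 2) and 680 to 2025 lower (fewest without 4-OHT 2) in UHO-1, and 278 to 622 higher (fewest without 4-OHT 1) and 87 to 392 lower (fewest without 4-OHT 2) in SUP-HD1. A lone array is assumed to vary like the other groups.

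Some values changed sign. Averages of SOCS2 were -0.066 without L428, -0.034 without UHO-1 and -0.063 in KM-H2 and L428 alone, those of STAT3 -0.018 and STAT5A 0.065 in the other 3 lines, STAT5A 0.041 without KM-H2, and STAT6 -0.040 without UHO-1 and -0.079 in KM-H2 and L428. In single lines they were 0.0020 (quantile) and 0.012 (cyclic loess) for STAT5A in L428, -0.0075 (quantile) and -0.046 (median centring) for SOCS3 in L1236, 0.0076 (cyclic loess) for STAT5A in L1236, and -0.0099 (quantile) and -0.055 (cyclic loess) for STAT3 in UHO-1. Averages of other genes were 0.014 for LIF and -0.32 for TIMP1 in KM-H2 and L428, -0.17 for TIMP1 and 0.014 for RCL1 without L1236, and -0.042 for PDCD1LG2 in the other 3 lines. Without 1 array, the values ran from -0.012 to 0.097 for the SOCS2 average, from -0.11 to 0.046 for STAT5A and -0.00070 to 0.12 for STAT6 in L428, from -0.11 to 0.15 for SOCS3, -0.074 to 0.028 for CISH and -0.14 to 0.036 for STAT5A in L1236, from -0.030 to 0.038 for STAT3 in UHO-1 and from -0.091 to 0.16 for SOCS1 in SUP-HD1.

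The replicate numbers did not pair the arrays in the same way in each line. Deviations of same-numbered arrays correlated at -0.56 in L1236, -0.082 in KM-H2, 0.037 in L428, 0.28 in SUP-HD1 and 0.29 in UHO-1. With the number as a block, 4 members were higher and 4 lower on average (2657 and 3220 of all genes). In L428, 4 rather than 5 were higher, with 1841 of all genes, and STAT3 was lost (limma, adjusted p = 0.0540). The F test was passed by 9 members and 6122 of all genes. With the numbers of the L1236 4-OHT arrays crossed, an alternative chosen after seeing the data, 2 members and 1584 of all genes were higher in L1236. JAK2 was among these members (limma, adjusted p = 0.00921). In that fit 3056 of all genes were higher and 3810 lower on average, and 2683 were lower in UHO-1 and 609 in SUP-HD1.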
